A study of Saccharina japonica with 2 samples.

Results

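Transcript levels in darkness and under blue light (BL) were compared for 33 unigenes of the kelp Saccharina japonica whose annotation names them as ubiquitin, as enzymes that attach or remove ubiquitin, as parts of the proteasome, as heat shock proteins or as chaperones. A unigene is an assembled transcript sequence left after redundant sequences were merged. The 33 were found by keywords (ubiquitin, proteasome, heat shock, chaperon, DnaJ, T-complex) in the 1998 entries of the study's annotation list that were at hand, out of 70288 unigenes that had reads. The keywords took 34 entries, of which 1, a plastidal groES chaperonin, was left out because plastid, mitochondrial, ribosomal protein and kinase annotations were not admitted. None of the 34 was among the photoreceptor or BL response genes that the study had listed. All 33 had reads in both libraries, and all 33 had the length given by the annotation list.

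Ubiquitin is a small protein that cells attach to other proteins through a chain of enzymes. The conjugating enzyme carries the ubiquitin, and the ubiquitin-protein ligase chooses the protein that receives it. Proteins that carry ubiquitin chains are unfolded and cut up by the 26S proteasome, and deubiquitinating enzymes take the ubiquitin off again. Heat shock proteins and other chaperones bind unfolded proteins and help them to fold, DnaJ proteins pass clients to the Hsp70 chaperone and stimulate its ATPase, and chaperonins enclose proteins in a barrel while they fold. Heat shock transcription factors switch on chaperone genes in stressed eukaryotic cells.

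Vegetative tissue of sporophytes was first cultured for 4 h without light. The dark group then spent 2 h in sterilized seawater in darkness, and the BL group spent the same time in it under blue light-emitting diodes. The labels call the material mature thalli, and the paper calls it juvenile sporophytes. Several individuals were pooled for each treatment, and polyadenylated RNA of each pool gave 1 library, so that the variation between kelps could not be measured and every difference has no replicate check. In pooled whole tissue, more cells of a type and more RNA per cell cannot be told apart.

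Uniquely aligned reads numbered 10905306 in darkness, over 61927 unigenes, and 11410538 in BL, over 69362. Levels are given as RPKM, reads scaled to the length of the unigene and to the uniquely aligned reads of its library, and differences as the log2 ratio of BL over dark RPKM, with the exact 95% confidence interval (95% CI) that counting error allows. Unigenes were called upregulated or downregulated in a 2-sided Audic-Claverie test of the reads when P was at most 0.05, the Benjamini-Hochberg adjusted P (FDR) over all 70288 unigenes at most 0.001 and the absolute log2 ratio at least 1. This test compares the 2 libraries and not the treatments. Across the 61001 unigenes with reads in both libraries the median log2 ratio was 0.42, so a ratio of 0.42 is the middle of this transcriptome. Scaling by TMM factors lowers every ratio by 0.29 and scaling by median-of-ratios size factors lowers it by 0.42. The ratio also rose with the GC content of the unigene. For this reason ratios are also given with the GC trend removed, which subtracts the median ratio of unigenes of like GC content.

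Of the 33 unigenes 10 were upregulated in the BL library, 3 were downregulated and 20 did not pass all thresholds. Among all unigenes tested 25.0% were upregulated and 11.6% were downregulated, against 30.3% and 9.09% of the 33. The shares of the 33 were thus near the background, though the reads behind them were not alike. The 33 had a median of 494 reads, and all unigenes had 48. The FDR threshold was passed by 23 of the 33 and by 31462 of all 70288. The split between directions moved with the scaling, to 8 up and 4 down with TMM factors, 8 up and 6 down with size factors, and 2 up and 12 down without the GC trend. The calls over all 70288 unigenes, 17561 up and 8135 down, also moved. With TMM factors they became 14066 up and 11534 down, and with size factors 12632 up and 13292 down. Without the GC trend they became 12174 up and 6948 down. In that last setting downregulated calls fell over all unigenes and rose among the 33, from 3 to 12. They also rose among the 1998 annotated unigenes, from 182 to 398, so the rise is not particular to the 33. With total reads and the GC trend kept, 34.5% of the 1998 annotated unigenes were upregulated and 9.11% downregulated. The largest increases were those of a heat shock protein (Unigene1379), a ubiquitin family protein (Unigene14453) and a DnaJ-like protein (Unigene11327). The downregulated unigenes were a heat shock transcription factor (Unigene12135), a chaperonin (Unigene12637) and a possible chaperone (Unigene14672). By fold alone, 12 of the 33 (36.4%) were at least 2-fold higher in the BL library and 3 (9.09%) were at least 2-fold lower. The shares were 38.7% and 10.5% over the 1998 annotated unigenes, all of which had reads in both libraries. Over all 70288 unigenes they were 45.7% and 18.8%, and these include unigenes without reads in one of the libraries.

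**Figure D1:**
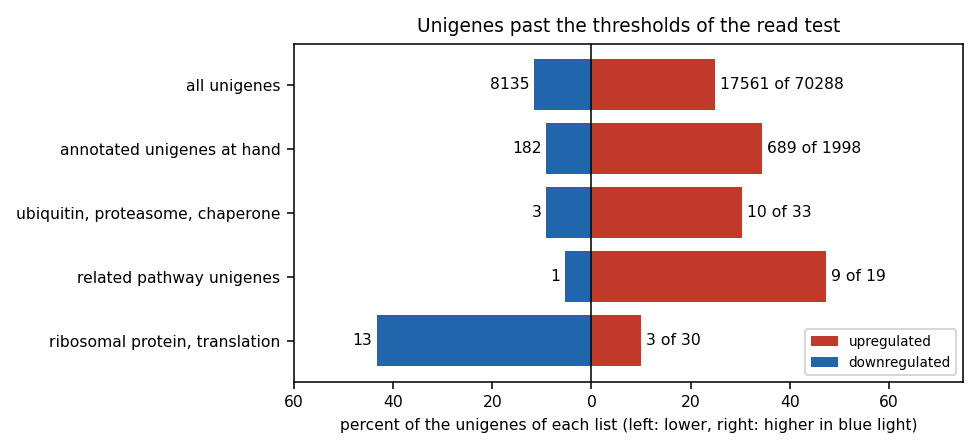
Percent of each list of unigenes past the thresholds of the read test, with upregulated unigenes to the right and downregulated ones to the left, and the counts beside the bars. Of the 33 ubiquitin, proteasome and chaperone unigenes 10 were upregulated and 3 downregulated, against 17561 and 8135 of all 70288. The split moved with the scaling and with removal of the GC trend. The latter gave 2 up and 12 down, against 12174 up and 6948 down of all 70288. Of the 1998 annotated unigenes it gave 287 up and 398 down.

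The median log2 ratio of the 33 was 0.72, beside 0.42 over all unigenes with reads in both libraries and 0.56 over the annotated ones. The ratios ran from -1.73 to 3.56, with the middle of them between -0.09 and 1.59 (quartiles). The intervals of 18 lay wholly above 0, those of 8 wholly below and those of 7 held 0. Measured against the transcriptome's median of 0.42 instead, 17 intervals lay above it and 12 below it. Neither count was made over all unigenes. Intervals narrow as reads rise, and the 33 had a median of 494 reads, against 48 over all unigenes. These counts therefore depend on abundance as well as on the ratios. The 33 unigenes held 0.157% of all reads in darkness and 0.218% in BL. A molecular chaperone, Unigene10997, supplied 21.9% of their dark reads and 28.8% of their BL reads, and without it the shares were 0.122% and 0.155%.

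These calls rest on counting error alone. When a coefficient of variation of 0.2 between pools was assumed, 6 of the 10 upregulated unigenes and none of the 3 downregulated ones stayed past the thresholds, beside 10182 up and 2631 down of all 70288. The 6 were Unigene13401, Unigene14453, Unigene1058, Unigene12823, Unigene1379 and Unigene11327. With 0.4 assumed, none of the 33 did, and 839 of all unigenes were still upregulated and 130 downregulated.

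**Figure D2:**
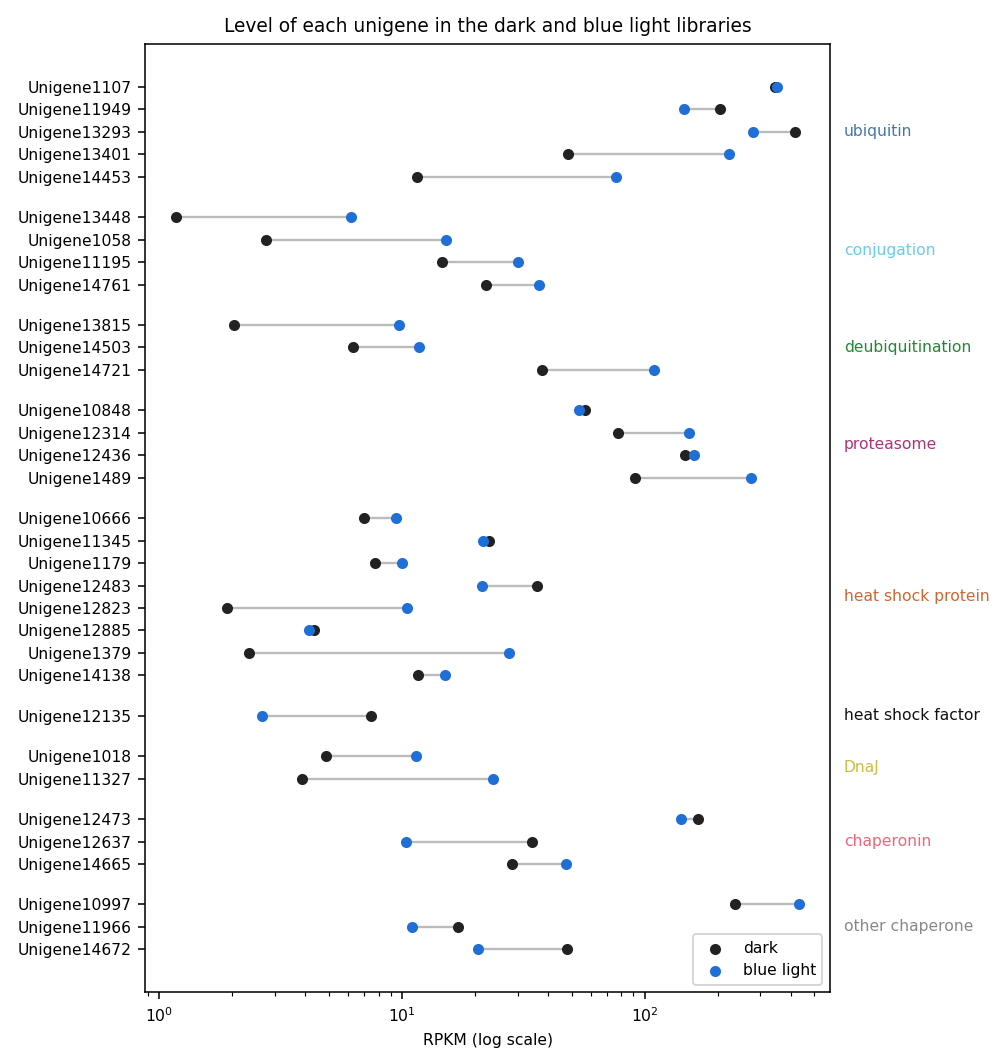
RPKM of each of the 33 unigenes in darkness (black) and BL (blue) on a log axis, grouped by role, with 1 library per treatment. Levels ran from 1.17 to 419 in darkness and from 2.65 to 433 in BL, and the ubiquitin and proteasome unigenes lay mostly toward the right.

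Among the 5 ubiquitin unigenes 2 were upregulated and none was downregulated, and the 3 most abundant ones in darkness were not called. Unigene13293, annotated as ubiquitin and the most abundant of all 33 in darkness, had 927 dark and 647 BL reads, or 419 and 279 RPKM. Its log2 ratio was -0.58 (95% CI -0.73 to -0.44), within the 2-fold limit, and it counted as downregulated with size factors and without the GC trend (-2.45). Polyubiquitin genes encode ubiquitin repeats in a row, from which single ubiquitins are cut. Unigene1107, similar to polyubiquitin, had 1362 dark and 1458 BL reads, 344 and 352 RPKM, with a log2 ratio of 0.03 (95% CI -0.07 to 0.14) that turned to -0.25 with TMM factors, -0.39 with size factors and -1.83 without the GC trend. The polyubiquitin Unigene11949 had 1343 and 998 reads, 205 and 146 RPKM, with a log2 ratio of -0.49 (95% CI -0.61 to -0.37).

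The other two ubiquitin unigenes were lower in darkness than these 3 and were upregulated. Unigene13401, similar to ubiquitin, went from 113 to 547 reads, or from 48.2 to 223 RPKM, a 4.63-fold increase (95% CI 3.77 to 5.72). Unigene14453, a ubiquitin family protein, went from 54 to 373 reads, or from 11.6 to 76.4 RPKM, a 6.60-fold increase (95% CI 4.95 to 8.95). The intervals of these 2 log2 ratios, which begin at 1.92, did not overlap those of the other 3, which end at 0.14. A change of library scaling moves all 5 log2 ratios by the same amount. The intervals hold counting error alone, and the cause of the gap was not tested. Without the GC trend Unigene13401, of 57.67% GC, had a log2 ratio of 1.19 and was still upregulated, and Unigene14453, of 67.29% GC, had 0.81 and was not. The 2 lay above the other 3 in that setting as well, the highest of which was -0.83. Ubiquitin sequences repeat and are alike between genes, and 4 of these 5 unigenes were shorter than 500 bp. Only uniquely aligned reads were counted, so reads that fit several copies could have been lost.

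The conjugating enzyme and the 3 ubiquitin-protein ligases all had a positive log2 ratio with total reads, TMM factors and size factors, and 2 of the 4 were upregulated, both of them ligases. Over all 70288 unigenes 43800 ratios were positive with total reads, 40343 with TMM factors and 38817 with size factors. These counts include unigenes without reads in a library, which the 4 enzymes are not. Without the GC trend 2 of these 4 enzymes had a positive ratio, beside 42060 of all 70288. The ligase Unigene1058 had 38 dark and 220 BL reads, 2.76 and 15.3 RPKM, which is a 5.53-fold increase (95% CI 3.91 to 8.03). The ligase Unigene11195 had 214 and 460 reads, 14.7 and 30.2 RPKM. Its log2 ratio of 1.04 (95% CI 0.80 to 1.28) lay just past the fold threshold, and it fell short of it with TMM factors (0.75) and size factors (0.62) and was -0.83 without the GC trend. The third ligase, Unigene14761, had 235 and 406 reads, 22.2 and 36.7 RPKM, and a log2 ratio of 0.72 (95% CI 0.49 to 0.96), below the fold threshold. It held -1.19 without the GC trend and counted as downregulated there. The conjugating enzyme Unigene13448 had 4 dark and 22 BL reads, 1.17 and 6.16 RPKM, the lowest level of all 33 in darkness. Its log2 ratio of 2.39 had a wide interval (0.84 to 4.39), and at an FDR of 0.00171 it missed the threshold. In the order of their levels the 3 ligases stood alike in both libraries, with Unigene14761 highest and Unigene1058 lowest, and the levels lay closer together, as a ratio, in BL.

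All 3 deubiquitinating enzymes had positive ratios with each library scaling, as did most unigenes of the whole set. That set includes unigenes without dark reads. Over unigenes with reads in both libraries, size factors set the median log2 ratio to 0 by construction. Only 1 of the 3 was upregulated, the ubiquitin thioesterase Unigene14721. It had 444 dark and 1349 BL reads, or 37.6 and 109 RPKM, a 2.90-fold increase (95% CI 2.61 to 3.24). The log2 ratio of 1.54 stayed past the thresholds with TMM factors (1.25) and size factors (1.12) and was 0.57 without the GC trend. Ubiquitin-specific proteases are the other type of deubiquitinating enzyme among the 33. Unigene14503, of this type, had 61 and 119 reads, 6.29 and 11.7 RPKM, with a log2 ratio of 0.90 (95% CI 0.44 to 1.37), and -1.01 without the GC trend. Unigene13815, of 225 bp, had 5 and 25 reads, 2.04 and 9.74 RPKM, with a log2 ratio of 2.26 (95% CI 0.85 to 4.00) and an FDR of 0.00114, just short of the threshold.

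Of the 4 proteasome unigenes, all of them above 50 RPKM in both libraries, 1 was upregulated and none was downregulated. Unigene1489, a 26S proteasome subunit, went from 725 to 2282 reads, or from 91.2 to 274 RPKM, a 3.01-fold increase (95% CI 2.77 to 3.27). With TMM factors its log2 ratio was 1.30 and with size factors 1.17, and it was 0.05 without the GC trend. Unigene12314, a proteasome subunit, had 599 and 1228 reads, 78.0 and 153 RPKM. The log2 ratio of 0.97 (95% CI 0.83 to 1.11) lay just short of 2-fold, and was -0.72 without the GC trend. The remaining pair was nearly level between the libraries.

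Unigene12436, annotated as proteasome, had 1522 and 1738 reads, 146 and 159 RPKM, a log2 ratio of 0.13 (95% CI 0.03 to 0.23), which turned negative with TMM factors (-0.16), with size factors (-0.29) and without the GC trend (-1.75). The proteasome family protein Unigene10848 had 1191 and 1176 reads, 56.7 and 53.5 RPKM, with a log2 ratio of -0.08 (95% CI -0.20 to 0.03). The interval of Unigene1489 lay above that of Unigene12314, and both lay above those of the other two, which overlapped. The order of the log2 ratios held without the GC trend at its top only, where Unigene1489 and Unigene12314 stayed highest, while Unigene10848 (-1.34) then stood above Unigene12436.

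**Figure D3:**
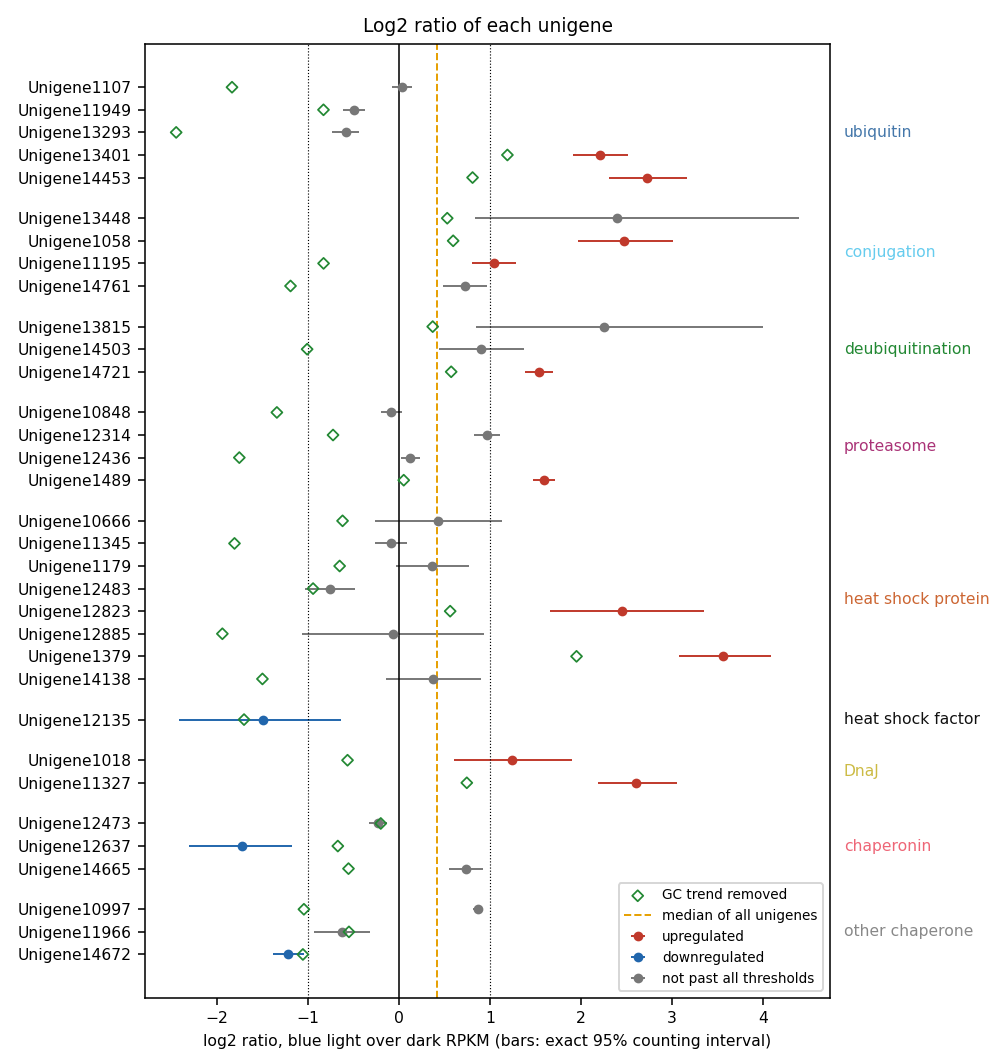
Log2 ratio of BL over dark RPKM for each of the 33 unigenes by role, with exact 95% counting intervals as bars, and the ratio with the GC trend removed as open diamonds. Dotted lines mark 2-fold, and the dashed line marks the median of all unigenes at 0.42. The 10 upregulated unigenes lie right of the dotted line at 1 and the 3 downregulated ones left of that at -1, and 12 of the 33 change sign when the GC trend is removed.

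The 8 unigenes annotated as heat shock protein, whose annotation does not give their size class, split into 2 that were upregulated and 6 that were not called. Unigene1379 had the highest ratio of all 33. It went from 37 to 457 reads, or from 2.34 to 27.6 RPKM, an 11.8-fold increase (95% CI 8.44 to 17.0). Reads covered 59.41% of its length in darkness and 96.07% in BL. Its log2 ratio of 3.56 was 3.27 with TMM factors, 3.14 with size factors and 1.95 without the GC trend, and it was upregulated in each of these. Unigene12823 went from 15 to 86 reads, or from 1.91 to 10.4 RPKM, a 5.48-fold increase (95% CI 3.14 to 10.2), and without the GC trend its log2 ratio was 0.56.

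The other 6 heat shock proteins lay within 2-fold, and the intervals of 5 of them held 0. Unigene12483 was the exception, with 292 dark and 181 BL reads, 36.1 and 21.4 RPKM, and a log2 ratio of -0.76 (95% CI -1.03 to -0.48). It was the most abundant heat shock protein in darkness, and it counted as downregulated with TMM factors (-1.04) and size factors (-1.18). Unigene11345, the longest of the 33 with 2285 bp, had 570 and 561 reads, 22.9 and 21.5 RPKM, and a log2 ratio of -0.09 (95% CI -0.26 to 0.08). Unigene12885 had 19 reads in each library, which leaves an interval of the log2 ratio from -1.06 to 0.93. Without the GC trend Unigene11345 (-1.81) and Unigene12885 (-1.94) counted as downregulated.

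Unigene10666 (32 and 45 reads), Unigene1179 (93 and 125) and Unigene14138 (56 and 76) had log2 ratios of 0.43, 0.36 and 0.38. The first was close to the median of all unigenes, and the other two were below it. These 3 turned negative without the GC trend, at -0.62, -0.65 and -1.50, and Unigene14138 counted as downregulated there. With size factors Unigene1179 (-0.059) and Unigene14138 (-0.045) also turned negative. The order of levels among the heat shock proteins thus differed between the libraries. In darkness Unigene12483, Unigene11345 and Unigene14138 were highest, and in BL Unigene1379 was, followed by Unigene11345 and Unigene12483 with nearly the same level.

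The single heat shock transcription factor, Unigene12135, was downregulated. It had 43 dark and 16 BL reads, or 7.44 and 2.65 RPKM, a 2.81-fold decrease (95% CI 1.55 to 5.35), with an FDR of 4.75e-04. Its level in BL was the lowest of all 33. The log2 ratio of -1.49 was -1.78 with TMM factors, -1.91 with size factors and -1.70 without the GC trend, and it was downregulated in all of these. It was no longer called when a coefficient of variation of 0.2 between pools was assumed.

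Both DnaJ-like proteins were upregulated. Unigene11327 went from 53 to 338 reads, or from 3.88 to 23.6 RPKM, a 6.09-fold increase (95% CI 4.55 to 8.30), and had a log2 ratio of 0.74 without the GC trend. Unigene1018 went from 30 to 74 reads, or from 4.86 to 11.5 RPKM, a 2.36-fold increase (95% CI 1.52 to 3.73). The log2 ratio, 1.24 with total reads, was below the fold threshold with TMM factors (0.95) and size factors (0.82), and was -0.57 without the GC trend. The intervals of the 2 log2 ratios did not overlap, with Unigene1018 ending at 1.90 and Unigene11327 starting at 2.19.

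None of the 3 chaperonins was upregulated, and 1 was downregulated. Unigene12637, of 303 bp, went from 114 to 36 reads, or from 34.5 to 10.4 RPKM, a 3.31-fold decrease (95% CI 2.26 to 4.96). With 40.59% its GC content was the lowest of the 33, and without the GC trend its log2 ratio of -1.73 was -0.67 and not called. Unigene12473, with 1622 and 1447 reads and 166 and 141 RPKM, was the most abundant chaperonin, with a log2 ratio of -0.23 (95% CI -0.33 to -0.13). Unigene14665 had 375 and 652 reads, 28.4 and 47.3 RPKM, with a log2 ratio of 0.73 (95% CI 0.55 to 0.92), and -0.55 without the GC trend. The intervals of the 3 did not overlap.

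The 3 chaperones without a family name differed as well. Unigene10997, annotated as molecular chaperones, had the most reads of the 33, 3748 in darkness and 7158 in BL, or 237 and 433 RPKM. Its log2 ratio of 0.87 (95% CI 0.81 to 0.93) has the narrowest interval of the 33 and stays below 2-fold, and it was -1.04 and downregulated without the GC trend. Unigene14672, a possible chaperone, was downregulated, from 928 to 418 reads or 47.9 to 20.6 RPKM, a 2.32-fold decrease (95% CI 2.07 to 2.61), with log2 ratios of -1.50 with TMM factors, -1.64 with size factors and -1.06 without the GC trend. Unigene11966, a molecular chaperone, had 222 and 151 reads, 17.0 and 11.0 RPKM, a log2 ratio of -0.62 (95% CI -0.93 to -0.32), and with size factors (-1.04) it counted as downregulated.

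The 33 unigenes differed in GC content along with their ratios. Their median GC content was 60.4%, against 52.3% over all unigenes with a read and 57.6% over the annotated ones, and 29 of the 33 had more than 55% GC. The 10 upregulated ones had 57.49% to 67.29% GC and the 3 downregulated ones 40.59% to 55.28%. The GC ranges of the calls over all unigenes were not worked out. Over all unigenes with at least 50 reads the median log2 ratio also rose with GC. It went from -1.07 in the class at 40.51% GC to 1.92 in the class at 65.36%. The 20 that were not called had a median of 60.8% GC, close to the 60.9% of the upregulated ones. Across the 33, which share the same 2 libraries, Spearman's rho between GC content and log2 ratio was 0.58, and across the 34252 unigenes of the whole set with at least 50 reads and 1 in each library it was 0.53. The cause of this relation was not tested, and with 1 library per treatment a difference between libraries and the light treatment cannot be told apart.

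Set beside all unigenes of like GC content, the 33 had a lower median ratio in both of the bands that hold most of them. Above 60% GC the median log2 ratio was 0.93 over 18 of the 33 and 1.86 over 5806 unigenes with at least 50 reads, and 6 of the 18 lay above the latter. Between 55% and 60% GC the medians were 0.43 over 11 of the 33 and 0.91 over 6736 unigenes, with 4 of the 11 above. Of the 4 with less GC, 1 lay above the median of its band. With the GC trend removed the median log2 ratio of the 33 was -0.67, with 2 upregulated (Unigene13401 and Unigene1379) and 12 downregulated, of which Unigene12135 and Unigene14672 had been downregulated before. Over all unigenes with reads in both libraries the median in that setting was 0.20, and 12174 were upregulated and 6948 downregulated. Over the 1998 annotated unigenes it was -0.24, with 287 upregulated and 398 downregulated. It was -0.94 over 10 plastid and photosynthesis unigenes and -1.07 over 30 ribosomal protein and translation unigenes. These lists shared a negative median in that setting. Over 19 related protein folding and ubiquitin pathway unigenes, described below, the median was 0.05, with 3 upregulated and 5 downregulated.

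**Figure D4:**
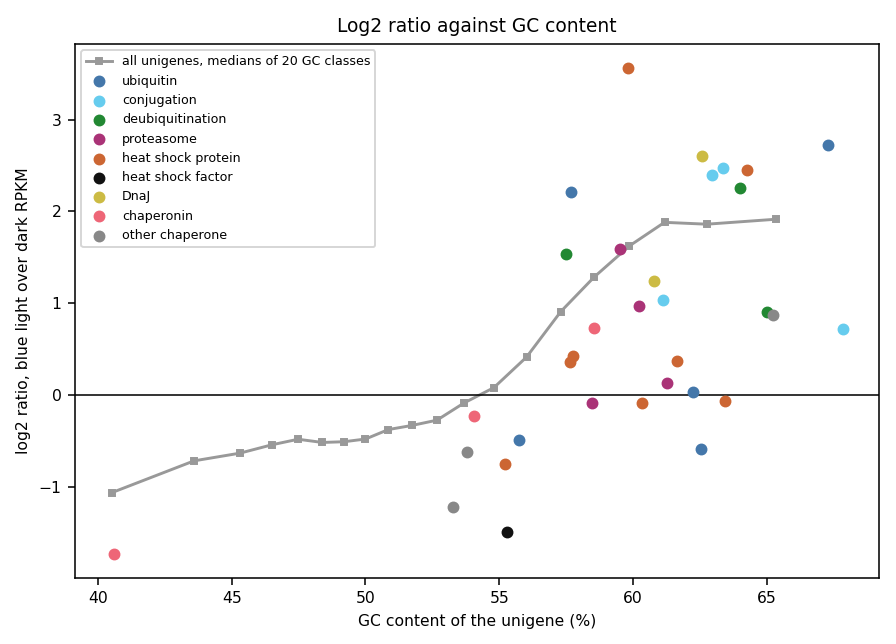
Log2 ratio of BL over dark RPKM against the GC content of each of the 33 unigenes, coloured by role, with the median ratios of 20 GC classes of all unigenes with at least 50 reads in grey. The grey line climbs from below 0 to near 1.9 above 60% GC, and 10 of the 33 lie above it.

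The level of expression in darkness moved with the ratio too. The 10 upregulated unigenes had a median of 8.21 RPKM and at most 91.2 RPKM in darkness, and the 20 not called a median of 25.7 RPKM. In darkness 6 of the 33 exceeded 100 RPKM, namely Unigene1107, Unigene11949, Unigene13293, Unigene12436, Unigene12473 and Unigene10997, and none of these was called. The share of calls among all unigenes above that level was not worked out. The dark level is itself a part of the ratio. Across the 33 Spearman's rho between the dark RPKM and the log2 ratio was -0.50, and across the 34252 unigenes -0.65. Across the 30 of the 33 with at least 50 reads, the limit set for the 34252, it was -0.45. Between unigene length and the ratio it was 0.03 across the 33, 0.11 across these 30 and 0.09 across the 34252.

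A further 19 annotated unigenes belong to protein folding or the ubiquitin pathway under names that the keywords do not take or that were not admitted. Of these 9 (47.4%) were upregulated, 1 (5.26%) was downregulated and 9 were not called. The shares were 25.0% and 11.6% over all unigenes, and 34.5% and 9.11% over the annotated ones. The median log2 ratio of the 19 was 1.01, beside 0.42 over all unigenes with reads in both libraries and 0.56 over the annotated ones. Without the GC trend it was 0.05. The median GC content of the 19 was 58.1%. In the ubiquitin pathway 4 of 7 were upregulated, a ring finger protein (Unigene10193, log2 ratio 3.03, from 28 to 239 reads), a HECT domain protein (Unigene13005, 2.28), a COP9 signalosome subunit (Unigene1448, 1.69) and a cullin-associated protein (Unigene11376, 1.67). RING and HECT domains are the catalytic parts of many ubiquitin ligases, and the COP9 signalosome takes the activating Nedd8 tag off cullin ligases. Without the GC trend Unigene10193 (1.70) was still upregulated, Unigene13005 (0.94) and Unigene1448 (0.53) were not, and Unigene11376 turned to -0.21. The 26S protease regulatory subunit Unigene12119, a proteasome part by its name, had 1508 and 2323 reads and a log2 ratio of 0.56 (95% CI 0.46 to 0.65), which was -1.18 without the GC trend.

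Folding factors of the endoplasmic reticulum moved in both directions. Calreticulin (Unigene10747), which binds calcium and glycoproteins, rose from 677 to 3186 reads, by 2.17 on the log2 scale (95% CI 2.05 to 2.29). Protein disulfide isomerase (Unigene10841), which forms disulfide bonds, rose from 316 to 1059 reads, by 1.68 on the log2 scale (95% CI 1.50 to 1.87). Calnexin (Unigene10806), the membrane-bound relative of calreticulin, fell from 2195 to 760 reads, with a log2 ratio of -1.60 (95% CI -1.72 to -1.48). Without the GC trend protein disulfide isomerase (2.02) and calnexin (-1.52) kept their calls, and calreticulin (0.54) did not.

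Among the other chaperones the hsp90-like protein Unigene12854 was upregulated, with a log2 ratio of 2.43, and 0.58 without the GC trend. A cysteine string protein, a prefoldin and the plastidal groES chaperonin were not, with log2 ratios of -0.04, -0.63 and -0.04, of which the first and the last were 0.55 and 0.05 without the GC trend. Of 5 cis-trans isomerases, enzymes of which many turn proline bonds during folding, 2 were upregulated, Unigene14894 (1.77) and Unigene10135 (1.71). Unigene14894 had a log2 ratio of 1.76 without the GC trend and stayed upregulated, and Unigene10135 had -0.12.

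Of the unigenes that make and fold proteins, those annotated as ribosomal protein or translation factor had the other balance of calls. Of 30 such unigenes 3 were upregulated and 13 downregulated, with a median log2 ratio of -0.40 and a median GC content of 53.9%, against 0.72 and 60.4% for the 33. Without the GC trend both lists were mostly lower in BL, with 12 of the 33 and 15 of the 30 downregulated. The difference between the lists was not tested.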

How the data were processed

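Reads were cleaned, assembled (SOAPdenovo), merged into 1 set of unigenes and aligned back to it by the authors. The aligner is not given in the sources used here. The deposited values are counts of uniquely aligned reads per unigene, without normalization, with percent values, per the file headers, for covered length, GC and unknown bases. Unlisted unigenes were set to 0. RPKM used the uniquely aligned reads of each library. Annotations came from the part of the study's list at hand (1998 entries). No unigene sequence was used.

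The 2-sided Audic-Claverie test put the observed count in both tails, and intervals are exact Clopper-Pearson (95%), for counting error only. The study's length minimum of 500 bp was not applied, since 10 of the 33 unigenes are shorter, and was an alternative. The GC trend was interpolated between the medians of 20 GC classes of unigenes that had reads in both libraries and 50 or more in total, and held level beyond the last class. It was subtracted from the ratios and used in the test.

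Alternatives were Fisher's exact test (doubled smaller tail), TMM factors (edgeR 4.0.16 in R 4.3.3), median-of-ratios size factors, at least 500 bp, at least 10 reads, an absolute log2 ratio of at least 2, a pseudocount of 1 RPKM, and the exact test of edgeR under a coefficient of variation of 0.2 or 0.4. Python 3.11.15 and scipy 1.17.1 were used, and the tests were tried on simulated data. Every member is named. The members, lists and alternatives were chosen with earlier results of these data known.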

Additional observations from a re-analysis of the deposited data

How the results depend on the processing

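Fisher's exact test and the filter at 10 reads changed no call of the 33 unigenes, and the minimum of 500 bp left 8 upregulated and 2 downregulated. The count of 10 upregulated fell to 8 with TMM factors and with size factors, to 6 at an absolute log2 ratio of 2 and with a coefficient of variation of 0.2, to 2 without the GC trend and to 0 with 0.4. The count of 3 downregulated became 4 with TMM factors, 6 with size factors, 12 without the GC trend and 0 at a log2 ratio of 2 and with either coefficient of variation. Past 2-fold without a test there were 2 higher and 12 lower without the GC trend and 6 lower with size factors, against 12 and 3. The median log2 ratio of 0.72 was 0.44 with TMM factors, 0.30 with size factors and -0.67 without the GC trend. Of the 19 related unigenes, 9 upregulated became 4 at a log2 ratio of 2, 3 without the GC trend and 0 with a coefficient of variation of 0.4. The 1 downregulated became 2 with size factors, 5 without the GC trend, and 0 at a log2 ratio of 2 and with 0.4. The cause was not tested.

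The sign turned with TMM factors for Unigene1107 (-0.25) and Unigene12436 (-0.16), and with size factors for Unigene1107 (-0.39), Unigene12436 (-0.29), Unigene1179 (-0.059) and Unigene14138 (-0.045). Without the GC trend it turned for Unigene1107 (-1.83), Unigene11195 (-0.83), Unigene14761 (-1.19), Unigene14503 (-1.01), Unigene12314 (-0.72), Unigene12436 (-1.75), Unigene10666 (-0.62), Unigene1179 (-0.65), Unigene14138 (-1.50), Unigene1018 (-0.57), Unigene14665 (-0.55) and Unigene10997 (-1.04). Among the 33, no other sign turned under the settings listed. No paired analysis was possible because each treatment has 1 library. For the same reason no library could be left out, and depth limits the unigenes with few reads, 2 of the 33 having under 10 reads in a library.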
